A study of Mus musculus with 2 samples.

Results

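Contacts between chromosome 1 and 6 gene families of the 2-cell stage were read from Hi-C libraries of mouse embryonic stem (ES) cells. The genes were those on chromosomes 2 to 19 of the RefSeq annotation of GRCm38 whose symbol starts with *Zscan4*, *Tdpoz*, *Usp17l*, *Tcstv*, *Pramel*, *Pramef* or *Duxbl*. This gave 74 of 44064 genes, 67 of them protein-coding and 7 pseudogenes. No gene of this annotation has a symbol that starts with *Pramef*, and 6 *Pramel* genes carry such a name as an older symbol. A window of 500 kb centred on each gene was taken, and overlapping windows were merged into 13 windows of 12.02 Mb in all. *Zscan4* has 9 genes in 1 window, *Tdpoz* 8 genes in 2, *Usp17l* 6 genes in 2, *Tcstv* 2 genes in 1, *Pramel* 46 genes in 6 and *Duxbl* 3 genes in 1.

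Hi-C ligates DNA ends held near each other by cross-linking, so each read pair records 1 contact. The series compares wild-type with *Lin28a* knockout ES cells, with 1 library each, both grown in LIF/2i medium for 2 days on gelatin with mouse embryonic fibroblast (MEF) feeder cells. *Lin28a* encodes an RNA-binding protein. The methods of the study describe knockout clones made with CRISPR/Cas9 cuts in the second exon, in ES cells that are E14 unless V6.5 is named. The study also lists ES cells taken from *Lin28* knockout mice. It does not say which of these cells were used for Hi-C. Although 2 replicates per group are mentioned by the labels, each library is a single list whose read names show 2 sequencing runs, so knockout and library cannot be told apart. The lists give positions and not bases, so they do not check the edit in *Lin28a*. No test between groups was made, and all intervals are at 95% and cover counting error only, with PCR copies and library differences outside them.

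The lists analysed here were partial, and chromosome 1 from 3 Mb to position 90750000 was the stretch held for both libraries. It had 5767991 wild-type and 4412861 knockout pairs, of which 2235886 and 1718683 joined it to chromosomes 2 to 19. The member windows received 6658 of these wild-type pairs and 4585 of these knockout pairs. The share of pairs from feeder cells was not measured.

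These families are known for a burst of transcription in the 2-cell embryo, when the embryonic genome is first switched on, and for sporadic expression in a small fraction of ES cells called 2C-like cells. DUX, a homeobox transcription factor, activates many of them. Most lie as tandem copies in clusters that arose by repeated duplication. Inside the nucleus, gene-rich active chromatin tends to meet other gene-rich chromatin, and gene-poor chromatin tends to meet gene-poor chromatin, also between chromosomes.

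A read that fits several places equally well has a low mapping quality. The copies printed here show how much some members resemble each other over the 250 bases before the gene start. The *Zscan4* genes encode zinc finger proteins with a SCAN domain, linked to telomere maintenance, and 3 of them are shown first. They come from RefSeq on GRCm38.p6, at chr7:11005495-11005744 on the plus strand for *Zscan4c*, chr7:11166149-11166398 on the minus strand for *Zscan4d* and chr7:11397665-11397914 on the plus strand for *Zscan4f*. Capitals mark bases that differ from *Zscan4c*. *Zscan4d* differs at 7 of 239 aligned bases and *Zscan4f* at 1 of 227.
Zscan4c: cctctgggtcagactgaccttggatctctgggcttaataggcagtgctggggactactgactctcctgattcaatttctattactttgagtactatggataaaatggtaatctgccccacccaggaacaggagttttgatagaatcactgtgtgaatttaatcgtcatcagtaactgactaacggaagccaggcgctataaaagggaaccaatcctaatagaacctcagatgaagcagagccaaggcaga
Zscan4d: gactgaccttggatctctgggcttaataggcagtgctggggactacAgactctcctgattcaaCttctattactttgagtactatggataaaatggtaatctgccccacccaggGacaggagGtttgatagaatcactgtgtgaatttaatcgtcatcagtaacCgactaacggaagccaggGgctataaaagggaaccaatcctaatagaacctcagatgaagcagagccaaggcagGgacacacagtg
Zscan4f: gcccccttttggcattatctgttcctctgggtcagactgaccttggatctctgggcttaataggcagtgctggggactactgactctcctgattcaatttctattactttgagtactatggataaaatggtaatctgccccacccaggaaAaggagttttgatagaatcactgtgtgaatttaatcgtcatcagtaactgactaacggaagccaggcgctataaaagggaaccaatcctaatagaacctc

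The same stretch is closer still in a pair of *Tdpoz* genes, which encode proteins with TRAF and POZ domains, and in a pair of *Pramel* genes, which encode leucine-rich repeat proteins related to the tumour antigen PRAME. *Tdpoz5* lies at chr3:93961315-93961564 and *Tdpoz7* at chr3:94072645-94072894, both on the minus strand, and the capital marks the 1 base of 250 that differs from *Tdpoz5*. *Pramel37* lies at chr5:94070546-94070795 and *Pramel50* at chr5:95736174-95736423, both on the minus strand, and all 250 bases are the same. None of the bodies of these 4 genes held a pair in either library. A promoter entry was found for 50 of the 74 genes.
Tdpoz5: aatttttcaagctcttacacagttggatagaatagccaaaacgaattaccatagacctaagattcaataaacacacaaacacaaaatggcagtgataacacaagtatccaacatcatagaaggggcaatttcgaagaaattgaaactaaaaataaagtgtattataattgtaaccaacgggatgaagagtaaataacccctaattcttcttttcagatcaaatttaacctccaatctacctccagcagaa
Tdpoz7: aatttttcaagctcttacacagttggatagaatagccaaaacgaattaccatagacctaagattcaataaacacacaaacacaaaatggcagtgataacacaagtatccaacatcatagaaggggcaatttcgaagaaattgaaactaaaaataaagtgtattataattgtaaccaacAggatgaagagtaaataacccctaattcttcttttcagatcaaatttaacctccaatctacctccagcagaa
Pramel37: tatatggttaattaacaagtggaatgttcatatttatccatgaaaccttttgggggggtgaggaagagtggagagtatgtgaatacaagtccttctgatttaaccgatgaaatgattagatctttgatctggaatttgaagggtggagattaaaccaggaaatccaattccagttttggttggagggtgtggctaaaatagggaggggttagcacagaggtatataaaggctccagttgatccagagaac
Pramel50: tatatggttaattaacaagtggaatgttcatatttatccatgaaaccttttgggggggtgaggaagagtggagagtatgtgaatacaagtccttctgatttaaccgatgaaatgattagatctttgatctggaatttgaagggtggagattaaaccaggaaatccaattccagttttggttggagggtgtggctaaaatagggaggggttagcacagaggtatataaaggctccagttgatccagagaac

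Gene bodies were thinly covered. Of the 74 genes, 50 held at least 1 pair in one of the libraries and 24 held none. Together the bodies, 733.1 kb long, had 162 wild-type and 122 knockout pairs. *Pramel17* had the most, with 14 wild-type and 7 knockout pairs. The best covered genes of the other families were *Usp17le* with 7 and 3, *Tdpoz8* with 6 and 5, *Zscan4-ps1*, a pseudogene, with 4 and 5, and *Tcstv3* with 1 and 0. These counts are too low for a score of a single gene, so the values below are those of windows. All 9 *Zscan4* genes and all 6 *Usp17l* genes, which encode ubiquitin-specific proteases, held a pair. In *Tdpoz* 6 of 8 genes held a pair, in *Pramel* 28 of 46 and in *Tcstv* 1 of 2. None of the 3 *Duxbl* genes, which encode homeobox proteins related to DUX, held one. The share of 100-base words with another exact copy on the same chromosome, called repeated words below, had a median of 17.9% in the genes with a pair and 85.0% in those without.

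Contact density is the number of pairs per known base over the mean of the same chromosome. Over all members it was 0.598 (0.584 to 0.613) for the wild-type and 0.569 (0.553 to 0.586) for the knockout, the order used for every pair of values below. *Duxbl* had the highest family value, 0.954 and 0.923, but all of its pairs lay outside the run of its genes, as described below. *Usp17l* had 0.798 and 0.778, *Tdpoz* 0.777 and 0.742, and *Zscan4* 0.773 and 0.867. The lowest values were those of *Tcstv*, 0.499 and 0.470, and *Pramel*, 0.459 and 0.402. These values mix unlike parts. From the first to the last gene of each window the density over all members was 0.342 and 0.335, against 0.845 and 0.794 in the rest. For *Zscan4* these were 0.607 and 0.694 against 1.05 and 1.15, and for *Pramel* 0.213 and 0.192 against 0.752 and 0.650. For *Usp17l* they were closer, 0.791 and 0.714 against 0.801 and 0.804. *Tcstv* genes are known from the 2-cell stage and from telomere elongation in ES cells, and 12.9% of the bases of their window are unknown.

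Repeated words made up 31.8% of the member windows, with a range from 4.06% to 68.5% over the 13 windows and a median of 2.94% over 500 kb tiles of chromosomes 2 to 19. The *Pramel* window on chromosome 5 had the most repeated words and the lowest density, 0.132 and 0.106. Ends with a mapping quality of 30 or more made up 88.1% (87.3 to 88.9) and 87.1% (86.1 to 88.0) of window ends against 92.5% and 91.8% of all trans ends. The share was lowest in the *Pramel* window at chr4:143147131-144650070, at 74.1% and 72.9%.

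**Figure D1:**
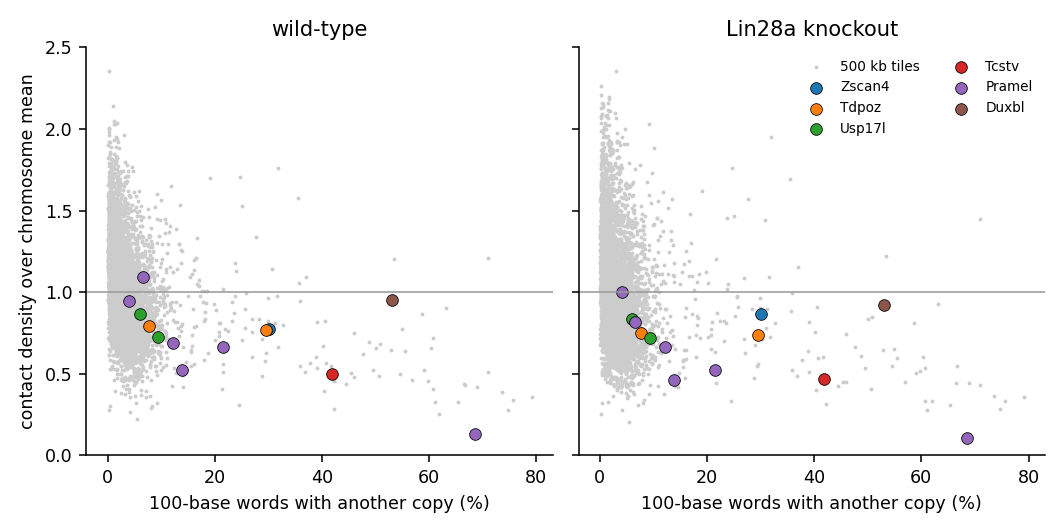
Contact density over the mean of the chromosome (y axis) against the percent of 100-base words with another copy (x axis) for the 13 member windows (coloured by family) and for 500 kb tiles (grey), wild-type on the left and knockout on the right. The *Pramel* window of chromosome 5 is the lowest member at 0.132 and 0.106, while the *Duxbl* window, with 53.0% repeated words, lies near 1.

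Along the windows, pairs were counted in steps of 50 kb. The 93 steps with under 10% repeated words had a median of 41 wild-type and 27 knockout pairs. The 54 steps with 50 to 90% had a median of 1 and 1, and 21 of them were empty in both libraries. Such steps differed by window. Those of *Zscan4* held from 12 to 28 wild-type pairs, while many of the *Pramel* window of chromosome 5 held none. Of the 20 steps with 90% or more, 16 were empty in both. The counts thus came mostly from the less repeated parts of each window.

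**Figure D2:**
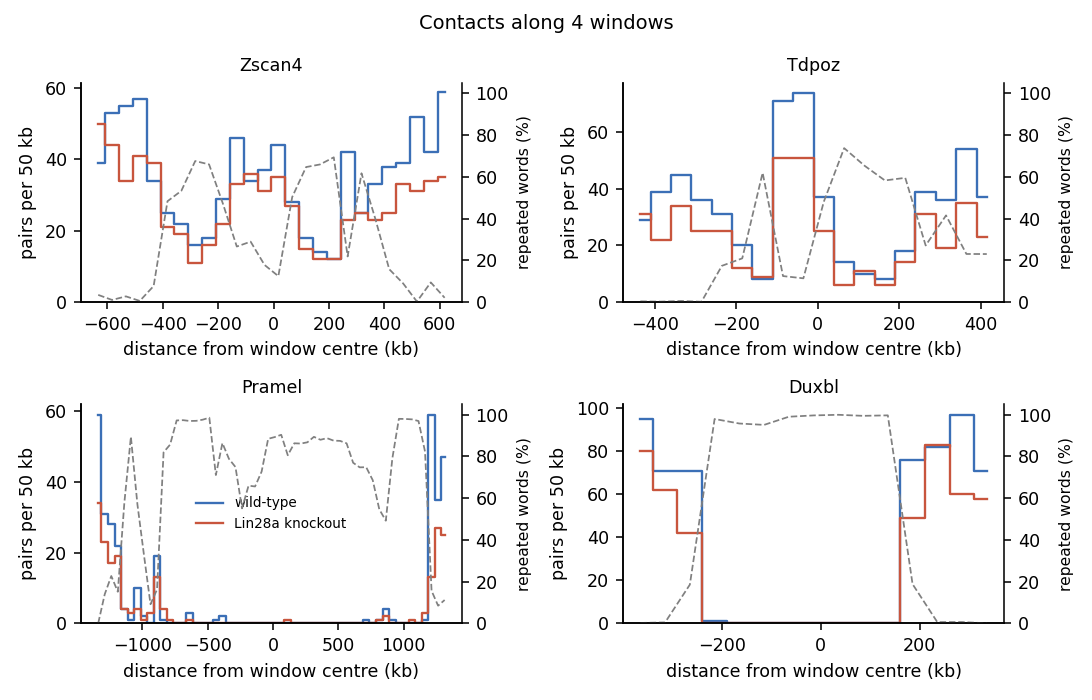
Pairs per 50 kb (left axis, solid steps, wild-type in blue and knockout in red) and percent of repeated words (right axis, dashed) against the distance from the window centre for the *Zscan4* window, the *Tdpoz* window of *Tdpoz2* to *Tdpoz7*, the *Pramel* window of chromosome 5 and the *Duxbl* window. Counts are near 0 across the repeated middle of the *Pramel* and *Duxbl* windows in both libraries.

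*Duxbl* was the extreme case. The run from the first to the last *Duxbl* gene, 0.291 Mb with 98.3% repeated words, held 0 pairs in both libraries. At the mean of chromosome 14 it would have held 238 and 191 pairs, and a count of 0, read as a limit of 3 pairs, allows a density of up to 0.0126 and 0.0157. The exact 95% limits were 0.0155 and 0.0193. The rest of its window had a density of 1.52 and 1.47. Every *Duxbl* value below therefore describes the flanks, which hold *Anxa11*, *Slmap* and *Zcchc24* among others, and not the *Duxbl* genes.

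An empty stretch of another kind lay in the *Pramel* window of *Pramel1* to *Pramel13* on chromosome 4. A patch scaffold of GRCm38.p6, MG4136_PATCH, copies 74 of its 300 stretches of 5 kb at 90% or more, and these held 0 pairs in both libraries. The 204 stretches with under 10% copied held 701 and 445 pairs. *Pramel1*, *Pramel12* and *Pramel20* are copied in full in the patch scaffolds and held no pair. No pair names MG4136_PATCH, and whether the aligner's index held it is not given in the sources used here.

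Which parts of chromosome 1 the windows met was read from a partner score. It is the log2 ratio of pairs with 250 kb bins of chromosome 1 that hold 3 or more coding genes (91 bins, called gene-rich) to pairs with bins that hold none (97 bins, called gene-poor), minus the same ratio over all pairs with chromosomes 2 to 19. A score below 0 means relatively more contacts with gene-poor bins. Over all members the score was -0.24 (-0.34 to -0.15) for the wild-type, from 1913 pairs with gene-rich and 1651 with gene-poor bins. For the knockout it was -0.39 (-0.50 to -0.27), from 1312 and 1225 pairs. Tiles of 500 kb had a median of -0.11 and -0.13, so the members lay below the median tile in both libraries with these bins. Some other bin definitions, given in the last section, gave a weaker wild-type score.

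The families differed in sign. *Zscan4* had the lowest score, -0.59 (-0.84 to -0.34) and -0.79 (-1.08 to -0.50). Its window lies in the first 20 Mb of chromosome 7. Tiles there had median scores of -0.25 and -0.41, and 5th percentiles of -0.90 and -0.89. *Usp17l* had -0.48 (-0.72 to -0.24) and -0.48 (-0.77 to -0.18). *Pramel* had -0.17 (-0.32 to -0.02) and -0.44 (-0.62 to -0.26). These 3 families had intervals below 0 in both libraries, although for *Pramel* in the wild-type this held in 11 of 16 alternatives. *Tdpoz* had -0.23 (-0.48 to 0.01) and -0.67 (-0.95 to -0.38), and *Tcstv*, with the fewest pairs, -0.38 (-0.79 to 0.03) and -0.10 (-0.61 to 0.40). The *Duxbl* flanks alone stood above 0, at 0.46 (0.14 to 0.78) and 0.77 (0.41 to 1.13), and the wild-type interval left out 0 in 11 of 16 alternatives.

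**Figure D3:**
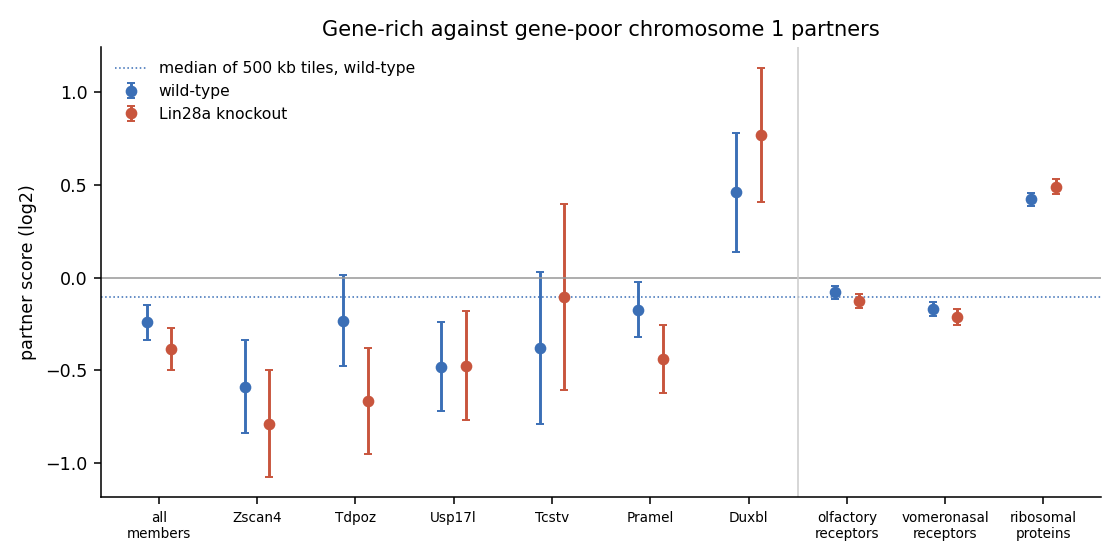
Partner score (log2, y axis) with 95% counting intervals for all members, each family and 3 other gene groups, wild-type in blue and knockout in red; the dotted line is the wild-type median of 500 kb tiles. *Zscan4* is lowest at -0.59 and -0.79, and *Duxbl* is the only member family above 0 in both libraries.

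Ends of high and low mapping quality were also scored apart. Over all members, ends with a mapping quality of 30 or more had -0.26 (-0.36 to -0.15) and -0.39 (-0.51 to -0.27). Ends below 30, which numbered 789 and 593, had -0.12 (-0.40 to 0.16) and -0.33 (-0.65 to -0.01). The intervals of both classes overlapped in each library. For *Zscan4* the high class had -0.63 and -0.84, and the low class, with 80 and 68 pairs, -0.19 and -0.25. The low class of a single family had too few pairs to tell its score from 0.

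Contacts were also counted by class of bin. The share of *Zscan4* contacts with bins of 0 coding genes was 1.22 and 1.26 times that of all trans pairs. With bins of 3 to 5 genes it was 0.804 and 0.741 times, and with bins of 6 or more 0.841 (0.630 to 1.10) and 0.673 (0.466 to 0.937). *Usp17l* had 1.16 and 1.15 times with bins of 0 genes. With bins of 6 or more it had 0.732 (0.543 to 0.963) and 0.738 (0.515 to 1.02) times. *Duxbl* ran the other way, with 0.824 and 0.787 times with bins of 0 genes. With bins of 3 to 5 it had 1.11 (0.970 to 1.26) and 1.31 times, and the wild-type value with bins of 6 or more was 1.24 (0.925 to 1.62). *Tcstv* had 1.15 and 1.23 times with bins of 6 or more, with intervals that held 1. Over all members the knockout share was 0.876 times with bins of 3 to 5 and 0.922 (0.820 to 1.03) times with bins of 6 or more, so it did not go on falling there. For *Pramel*, bins of 0 genes had 1.01 and 1.17 times the share. *Tdpoz* had 1.08 and 1.33 times there.

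**Figure D4:**
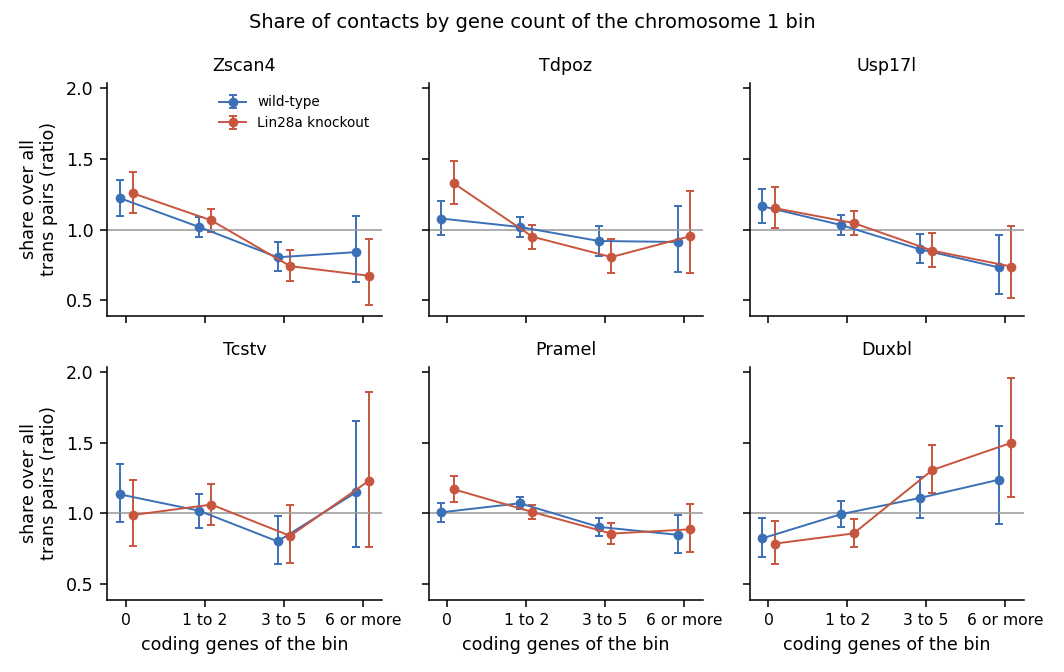
Share of each family's contacts over the share of all trans pairs (ratio, y axis) by coding genes of the 250 kb chromosome 1 bin (x axis), with exact binomial 95% intervals, wild-type in blue and knockout in red. *Zscan4* and *Usp17l* lie above 1 at 0 genes and below 1 at 3 to 5 genes in both libraries, and *Duxbl* lies below 1 at 0 genes.

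Of the 13 windows, 12 had a wild-type score below 0 and 11 a knockout score below 0, against 57.6% and 57.8% of tiles. The interval was wholly below 0 in 4 wild-type windows, where 28.6% of tiles had such an interval, and in 6 knockout windows, where 28.9% had. It was above 0 in the *Duxbl* window only, in both libraries, against 20.8% and 21.7% of tiles. The 4 wild-type windows were those of *Zscan4*, *Tdpoz8* and both *Usp17l* windows, but that of *Tdpoz8* left out 0 in only 5 of 15 alternatives. The lowest wild-type score after *Zscan4* was that of *Usp17ld* and *Usp17lc* at chr7:103001296-103667935, -0.53 (-0.89 to -0.16), followed by the window of *Usp17le-ps* to *Usp17la* at chr7:104400202-105109841, with -0.44 (-0.77 to -0.12). The highest after *Duxbl* were -0.00 (-0.37 to 0.37) for *Pramel7* and *Pramel6* and -0.07 (-0.48 to 0.34) for *Pramel33* to *Pramel50*. No member window passed -1, which 0.437% of wild-type and 2.07% of knockout tiles did, and none passed 1, which 0.023% and 0.506% did.

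The member windows are not gene-poor themselves. They had a median of 10.3 coding genes per 500 kb, and tiles with 6 to 10 coding genes had a median wild-type score of 0.24, while tiles with 0 had -0.49. Tiles with 5 to 20% repeated words had medians of -0.40 and -0.45, and those with 20% or more -0.16 and -0.35, against -0.24 and -0.39 over all members. The part of repeated words in the score was not tested. Of the 284 coding genes in the windows, 67 were members and 81 were olfactory receptor genes. The *Usp17l* windows held 34 and 24 olfactory receptor genes, and the *Pramel* window of chromosome 2 held 23. The *Zscan4* window held 6 vomeronasal receptor genes, the *Pramel32* window 17 genes with an interferon symbol, and the *Tdpoz8* window 8 late cornified envelope genes and 2 filaggrin genes of the skin. Most of these neighbours are known to be silent in ES cells.

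Windows of olfactory receptor genes that do not overlap a member window (63 windows) had scores of -0.08 and -0.13, and those of vomeronasal receptors (49 windows) -0.17 and -0.21. Windows of ribosomal protein genes (70 windows), which are active in every cell, had 0.42 and 0.49. The member families except *Duxbl* thus had scores below 0, as the receptor clusters had. That side was not particular to them, since 57.6% and 57.8% of tiles were below 0, with medians of -0.11 and -0.13. The intervals of *Tdpoz* in the wild-type and of *Tcstv* in both libraries held 0. Single windows of olfactory receptors reached down to -0.88 and -0.83, and those of vomeronasal receptors to -0.82 and -0.81, and the windows of *Zscan4* and *Usp17l* lay above these lowest values. The window of *Pramel7* and *Pramel6*, the lowest member window in the knockout, had a knockout score of -0.92 (-1.33 to -0.51). This was below the lowest receptor window of that library, but its interval held the lowest receptor values. That window is itself mostly an olfactory receptor cluster, with 23 such genes among 25 coding genes. It was not among the receptor windows because it is a member window.

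Within the windows, the run from the first to the last member gene was set apart from the rest. A run includes all sequence between its members, whose bodies were 733.1 kb long in all. For *Usp17l* the bodies were 28.3 kb, in runs of 0.385 Mb. Scores of runs are therefore not scores of the genes alone. The runs, 5.76 Mb with 53.7% repeated words, had a score of -0.52 (-0.70 to -0.34) and -0.52 (-0.73 to -0.30). The rest, 6.26 Mb with 11.5%, had -0.14 (-0.25 to -0.02) and -0.33 (-0.47 to -0.20). Run minus rest was -0.38 (-0.59 to -0.17) and -0.18 (-0.43 to 0.07). The difference was wider in the wild-type, and the change between libraries was 0.20 (-0.13 to 0.53). Without *Duxbl*, whose run had no pair, it was -0.29 (-0.51 to -0.08) and 0.01 (-0.24 to 0.27). In *Usp17l* the runs had -0.93 (-1.40 to -0.47) and -0.37 (-0.94 to 0.20), and in *Zscan4* -0.64 and -0.60, both with intervals below 0. In *Pramel* they had -0.37 (-0.67 to -0.07) and -0.67 (-1.04 to -0.30). The runs of *Tdpoz*, -0.25 (-0.73 to 0.23) and -0.54 (-1.08 to 0.00), and of *Tcstv*, -0.42 (-1.02 to 0.17) and 0.06 (-0.63 to 0.75), had intervals that held 0. The rest of the windows had -0.53 and -0.98 for *Zscan4*, -0.31 and -0.52 for *Usp17l*, -0.11 and -0.37 for *Pramel*, -0.23 and -0.72 for *Tdpoz* and -0.34 and -0.29 for *Tcstv*. By family, only *Usp17l* in the wild-type had an interval of run minus rest that left out 0, at -0.63 (-1.17 to -0.08). The runs of olfactory receptors had scores of -0.29 and -0.40, and those of vomeronasal receptors -0.37 and -0.44. For olfactory receptors run minus rest was -0.34 and -0.46, and for vomeronasal receptors -0.36 and -0.42.

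The knockout library was compared with the wild-type library by the contact ratio, the knockout over the wild-type count after scaling each to the pairs with the same chromosome. Over all members it was 0.948 (0.912 to 0.984). The ratio of *Pramel* was 0.873 (0.822 to 0.927), and without *Pramel* the pooled ratio was 1.00 (0.952 to 1.05). In the runs of genes alone, the intervals held 1, at 0.983 (0.915 to 1.05) over all members and 0.899 (0.797 to 1.01) for *Pramel*. The rest of the windows had 0.934 (0.893 to 0.977) and 0.865 (0.806 to 0.927), with intervals that overlapped those of the runs. The whole *Zscan4* window had 1.12 (1.02 to 1.24). The interval left out 1 in 9 of 11 alternatives for *Pramel*, whose ratio was 0.948 (0.892 to 1.01) against flanks of 5 Mb, and in 8 of 11 for *Zscan4*. The others lay between 0.941 for *Tcstv* and 0.976 for *Usp17l*, with intervals that held 1.

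The ratio had an interval below 1 in 4 windows, all of *Pramel*, where 11.5% of tiles had one, and above 1 in 1 window, where 10.5% had one. The lowest was the window of *Pramel17* to *Pramel19* at chr4:101589496-102191795, with 611 wild-type and 331 knockout pairs and a ratio of 0.751 (0.655 to 0.860). That window had only 6.57% repeated words, and against its flanks of 5 Mb the ratio was 0.830. The windows of *Pramel51* and of *Pramel33* to *Pramel50* had 0.792 and 0.802. The interval of the *Pramel1* to *Pramel13* window left out 1 in 5 of 10 alternatives and that of the chromosome 5 window in 6 of 10. Against its flanks of 5 Mb the first of these had 0.942, with an interval that held 1. A ratio of 0.8 or less was reached by 2 windows, against 3.31% of tiles and the inverse of 0.8 or more by 0, against 1.75%. Next to *Zscan4*, the highest ratios were 1.06 (0.921 to 1.22) in the window of *Pramel7* and *Pramel6* and 0.992 (0.856 to 1.15) in that of *Usp17ld* and *Usp17lc*.

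The *Zscan4* window, at chr7:10546654-11861710, had 932 wild-type and 740 knockout pairs. It lies 7.70% along chromosome 7, and tiles in the first 20 Mb of chromosome 7 had a median ratio of 1.14. Against its flanks of 5 Mb its ratio was 0.966 (0.876 to 1.07). Its contacts with the first 20 Mb over those with the last 20 Mb of the held stretch, relative to all trans pairs, were 0.89 and 1.63 on the log2 scale, a difference of 0.74 (0.31 to 1.17). Tiles in the first 20 Mb of chromosome 7 had medians of 0.87 and 1.42, so the *Zscan4* window had values close to those of its surroundings.

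The partner score differed by -0.14 (-0.29 to 0.00), knockout minus wild-type on the log2 scale, over all members. That interval held 0, and left it out under some alternatives given in the last section. The difference was -0.00 (-0.28 to 0.28) in the runs of genes and -0.20 (-0.37 to -0.03) in the rest of the windows. The intervals of runs and rest overlapped. The score was lower in 9 of the 13 windows, against 50.8% of tiles. *Tdpoz* had a difference of -0.44 (-0.81 to -0.06) and *Pramel* of -0.27 (-0.50 to -0.03). Each of these intervals held 0 under some alternatives, and left it out in 11 of 16. For *Tdpoz* the runs had -0.29 (-1.02 to 0.43) and the rest -0.49 (-0.93 to -0.05). For *Pramel* the runs had -0.30 (-0.77 to 0.18) and the rest -0.26 (-0.53 to 0.01). *Zscan4* had -0.20 (-0.58 to 0.18), *Usp17l* 0.00 (-0.38 to 0.38), *Tcstv* 0.27 (-0.37 to 0.92) and *Duxbl* 0.31 (-0.17 to 0.80). The interval of the difference was below 0 in 2 windows, against 3.33% of tiles, and above 0 in 0, against 3.22%.

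Those windows were the one of *Tdpoz2* to *Tdpoz7*, with -0.50 (-0.97 to -0.03), and the one of *Pramel7* and *Pramel6* at chr2:87240754-87758715, with -0.92 (-1.47 to -0.36). The interval of *Tdpoz2* to *Tdpoz7* left out 0 in only 7 of 15 alternatives, with values from -2.24 to 0.14, and that of *Pramel7* and *Pramel6* in 14 of 15. *Pramel7* is known from the inner cell mass. In that window 137 wild-type and 82 knockout pairs met gene-rich bins, while 100 and 111 met gene-poor bins. It was the only member window past a difference of 1.5-fold downwards, as were 2.64% of tiles, and 0 were past it upwards, as were 2.14%. Its run of genes had 20 and 24 pairs, so the difference lay in the olfactory receptor cluster around them, where the rest of the window went from 0.05 to -0.89.

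**Figure D5:**
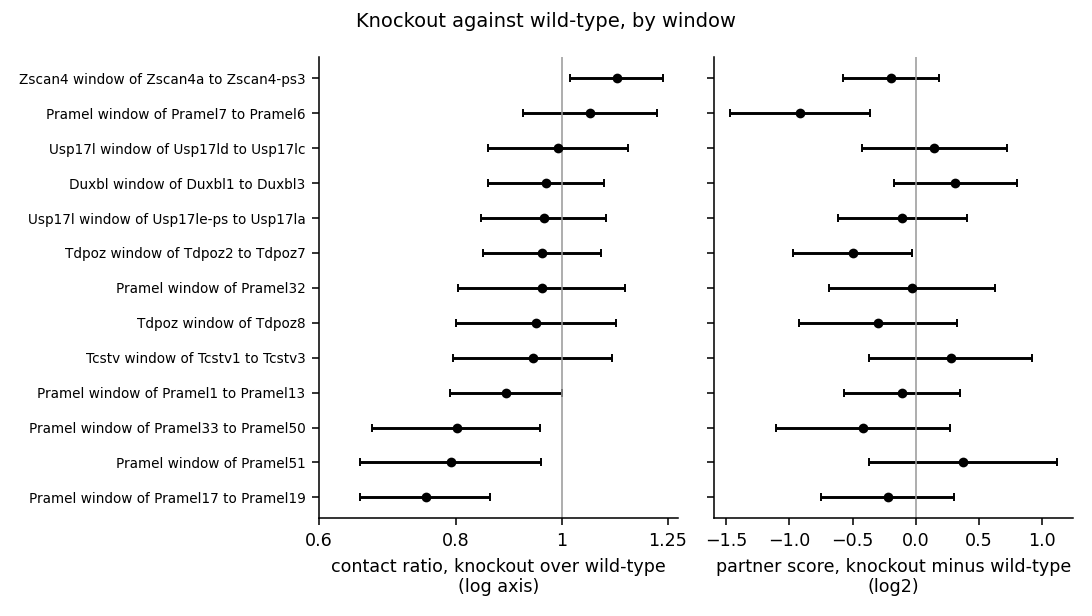
Contact ratio, knockout over wild-type (left, log axis), and difference of the partner score (right, log2) for the 13 member windows, with 95% counting intervals. *Zscan4* is highest in ratio at 1.12 and the *Pramel17* to *Pramel19* window lowest at 0.751, and the *Pramel7* and *Pramel6* window has the lowest score difference at -0.92.

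Of 20 other genes of the 2-cell programme and its control, 17 were found and 16 lay apart from the member windows. *Dux*, the activator itself, had a score of 0.25 (-0.27 to 0.77) and 0.08 (-0.48 to 0.65), both with intervals that held 0, in a window with 44.9% unknown bases. *Zfp352*, a zinc finger gene of the 2-cell stage, had -0.14 and -0.99, a difference of -0.85 (-1.55 to -0.16). *Tmem92*, also activated with the programme, moved the other way, from 0.27 to 0.81, with a difference of 0.54 (0.06 to 1.01). *Arg2*, which encodes an arginase, was above 0 at 0.49 and 0.47, and *Gm4340* had -0.29 and -0.27 with intervals that held 0. Among 9 repressors of the programme the wild-type interval was above 0 in 5, against 20.8% of tiles, and the knockout interval in 7, against 21.7%, and neither was below 0 in any. Their median wild-type score was 0.33, in windows with 5 to 26 coding genes, and tiles with 6 to 10 and with 11 or more coding genes had medians of 0.24 and 0.37. *Lin28a*, the targeted gene, had 0.19 and 0.71, which differ by 0.52 (0.02 to 1.02). The wild-type intervals of *Zfp352*, *Tmem92* and *Lin28a* held 0. Over the 16 windows the interval of the difference was below 0 in 1, against 3.33% of tiles, and above 0 in 3, against 3.22%.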

How the data were processed

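The members and gene lists were chosen with earlier results of these data known. Formaldehyde was the cross-linker per the labels, and the joined ends were sequenced as 150-base pairs. The submitters' processing notes name CASAVA 1.8, Bowtie2, HiC-Pro and mm10. The deposited lists hold 1 line per valid pair with a mapping quality score per end, and the authors gave no normalization. Pairs were counted here, with the first end on chromosome 1 from 3 Mb to position 90750000 and the second on chromosomes 2 to 19, and other pairs were left out. Partner scores used a pseudocount of 0.5 and log-normal intervals, shares exact binomial intervals, and contact ratios the exact binomial split of the counts. Tiles of 500 kb with 100 pairs or more in each library (4351 of 4418) gave the background. The depth of each window, 309 to 932 wild-type and 175 to 740 knockout pairs, sets its interval. Genes came from RefSeq (GRCm38.p6), with GENCODE M21 as an alternative. The text names every family, the 3 windows with the highest and lowest wild-type score and contact ratio, the best covered gene of each family and the other 2-cell genes described, and any further window or gene was chosen after its values were seen. The score calculation was checked on simulated pairs. Python 3.11.15, numpy 2.4.6, pandas 2.3.3 and scipy 1.17.1 were used. Other alternatives changed the window width, mapping quality, sequencing run, bins, families, scaling and pile-ups.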

Additional observations from a re-analysis of the deposited data

Results flagged for a closer look

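The knockout list reached past the stretch held for both libraries, and these pairs entered no comparison. With the rest of chromosome 1, from position 90750000 to 195250000, the member windows had a knockout partner score of -0.41 (-0.50 to -0.31) from 6524 pairs. With the start of chromosome 2, from 3 to 42 Mb, it was -0.33 (-0.53 to -0.13) from 2363 pairs. Pairs within chromosome 2 were left out, so the window of *Pramel7* and *Pramel6* entered neither that value nor the *Pramel* value for that stretch. *Zscan4* had -0.58 and -0.94 with these stretches, *Tdpoz* -0.47 and -0.41, *Usp17l* -0.76 and -0.77, *Pramel* -0.40 and -0.39, and *Duxbl* 0.44 and 0.87. *Tcstv* had 0.05 (-0.28 to 0.37) and 0.36 (-0.62 to 1.33). No wild-type value was analysed here for either stretch.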

How the results depend on the processing

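Of the pooled values under the alternatives, 77 moved by less than their counting interval, 13 moved by more and 1 changed side. The pooled contact ratio was 0.911 in the smaller sequencing run, 0.896 when scaled to all of chromosomes 2 to 19, 0.990 against flanks of 5 Mb (chosen after seeing the data), 0.998 with GENCODE (37 genes in 8 windows) and 1.00 without *Pramel*. The wild-type score was -0.11 with gene-rich bins of 1 or more genes and -0.11 with 100 kb bins. The knockout score was -0.26 with 100 kb bins, -0.54 without 5 kb pile-ups and -0.53 without *Duxbl*. Ends with a mapping quality of 20 or more made up 96.7% and 96.5%, and of 40 or more 66.8% and 65.8%. The interval of the pooled score difference left out 0 with bins of 1 or more genes (-0.16), 100 kb bins (-0.14), flanks of 5 Mb as reference (-0.18), without pile-ups (-0.21), and without *Usp17l* (-0.17), *Tcstv* (-0.17) or *Duxbl* (-0.21). The *Zscan4* ratio turned to 0.896 in the smaller run and 0.966 against its flanks. The pile-up rule took out 153 stretches of 5 kb with 1113 and 763 pairs. With the median over stretches that held a pair, it took out 3, with 56 and 37 pairs. In the windows of *Duxbl* and of *Pramel33* to *Pramel50* the median stretch was empty, so covered stretches were lost. The values without pile-ups thus partly repeat those without *Duxbl*. *Duxbl* then had no knockout pair left, and its value of -0.48 comes from the pseudocount and the reference alone and is no score. The *Tdpoz8* knockout score was 1.08 in the smaller run, the difference of *Tdpoz2* to *Tdpoz7* was 0.14 with bins of 6 or more genes, the ratio of *Pramel33* to *Pramel50* was 1.13 without pile-ups, and that of *Pramel51* was 1.28 in the smaller run, which held 596 wild-type and 195 knockout member pairs. Causes were not tested. No paired analysis was possible because each group has 1 library. Leaving out *Pramef* gave no value, since no gene carries that symbol.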
